A study of Mus musculus with 2 samples.

Results

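Some integrins and other adhesion receptors hold haematopoietic stem cells (HSCs) in the bone marrow and bring them back to it. The set comprised 36 genes of the 54531 in the deposited table, chosen by name: 21 integrin subunits other than the platelet pair, 4 genes that switch integrins on or anchor them, and 11 genes for homing receptors, a selectin ligand, a tetraspanin and cell adhesion molecules. All 36 symbols were found. The rule names genes and uses no measured value, but the members were chosen with earlier results of these data known. The RNA came from HSCs sorted from mouse bone marrow, in 2 libraries. The control library is labelled Angptl2fl/fl, that is, floxed alleles of Angptl2, the gene of a secreted angiopoietin-like protein. The deletion library is labelled Cdh5-Cre;Angptl2fl/fl, floxed alleles with a Cre recombinase under the promoter of Cdh5, the cadherin of endothelial cells, and its mice are described as deficient in Angptl2 in the endothelium. The floxed alleles are thus common to both genotype labels. The control column and description, however, carry the name of Cdh5 and Cre and no floxed allele. Whether control mice carried Cre, floxed alleles or both is therefore not settled. The labels do not state age, sex, strain, the sorting gate or how many mice went into a library. Each genotype has a single library, so there is no replicate check and no test, and every "higher" and "lower" below compares these 2 libraries.

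An integrin is a pair of one alpha and one beta chain, and the pair decides what the cell can hold on to. Pairs with the beta 1 chain bind fibronectin, laminin, collagen or VCAM1 in the niche, pairs with the beta 2 chain bind ICAMs and are the integrins of mature leukocytes, and the alpha 4 chain also pairs with beta 7. Talin and kindlin bind the beta chain tails inside the cell and bring the integrin into its binding state, under the control of the small GTPase Rap1. In stem cell homing these receptors act after the chemokine receptor CXCR4 and selectin ligands have brought the cell to the vessel wall.

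Values are FPKM (fragments scaled for gene length and for library depth), which allow levels of different genes to be compared per length. The fragments behind each value were recovered from the FPKM and the exon length, at depths of 17378620 (control) and 16843116 fragments (deletion). Angptl2 itself was at 0.265 FPKM in the control and 0.179 FPKM in the deletion library (29 and 19 fragments), too low in these cells to check the labels, and Cdh5 was at 0.0274 FPKM and 0. Of 12 HSC marker genes all were detected in both libraries, with a summed level of 152 FPKM in the control and 138 in the deletion library. Markers of maturing blood cells were abundant as well and differed between the libraries. The summed level of 11 neutrophil genes was 2560.0 FPKM in the control and 1453.7 in the deletion library, and all 11 were lower in the latter. The 5 genes of granulocyte and monocyte progenitors went the other way, at 1020.9 and 2681.1 FPKM. The summed level of 11 megakaryocyte and platelet genes was 65.4 and 161 FPKM, with 8 higher and 3 lower. Pf4 alone stood at 29.9 and 94.7 FPKM. The 9 erythroid genes summed to 1856.6 FPKM in the control and 2113.4 in the deletion library, with 6 lower and 3 higher. Car1 alone stood at 1315 and 1629 FPKM.

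Itgb1, Itga5, Itga6, Cd44, Cxcr4, Cd47 and Fermt3 stood within 1.07-fold in the 2 libraries, while the abundant genes Tln1, Rap1b and Itga4 differed by 1.18-fold to 1.27-fold. The larger differences included Itgal, Itgam and Itgb2, which encode LFA-1 and Mac-1, at 1.67-fold to 2.32-fold lower in the deletion library. The vitronectin receptor chain Itgav, at 1.35 FPKM in the control, was 1.91-fold lower, and Icam2 and Cd9 were 1.58-fold and 1.47-fold higher. Of the 36 genes, 24 had a mean of at least 1 FPKM and 12 did not. None of the 24 was 2-fold higher or lower on the log2((FPKM + 1)/(FPKM + 1)) scale used for counting. Among all 12325 genes at that level, 2.47% were 2-fold or more higher with the deletion and 3.38% lower. Among the 10237 protein-coding genes, the class to which all members belong, it was 0.488% and 0.752%. At 1.5-fold, 1 of the 24 was higher (Icam2) and 2 were lower (Itgal and Itgb2), against 2.54% and 2.75% of protein-coding genes. The median log2 ratio of the 24 was -0.09, with 9 above 0 and 15 below, and that of all protein-coding genes -0.01. Rescaling both libraries to a common total shifts the median of all genes by -0.14, and the signs of members near equality depend on it. The 24 passed through their mean over both libraries, so they are not a sample of all members.

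**Figure D1:**
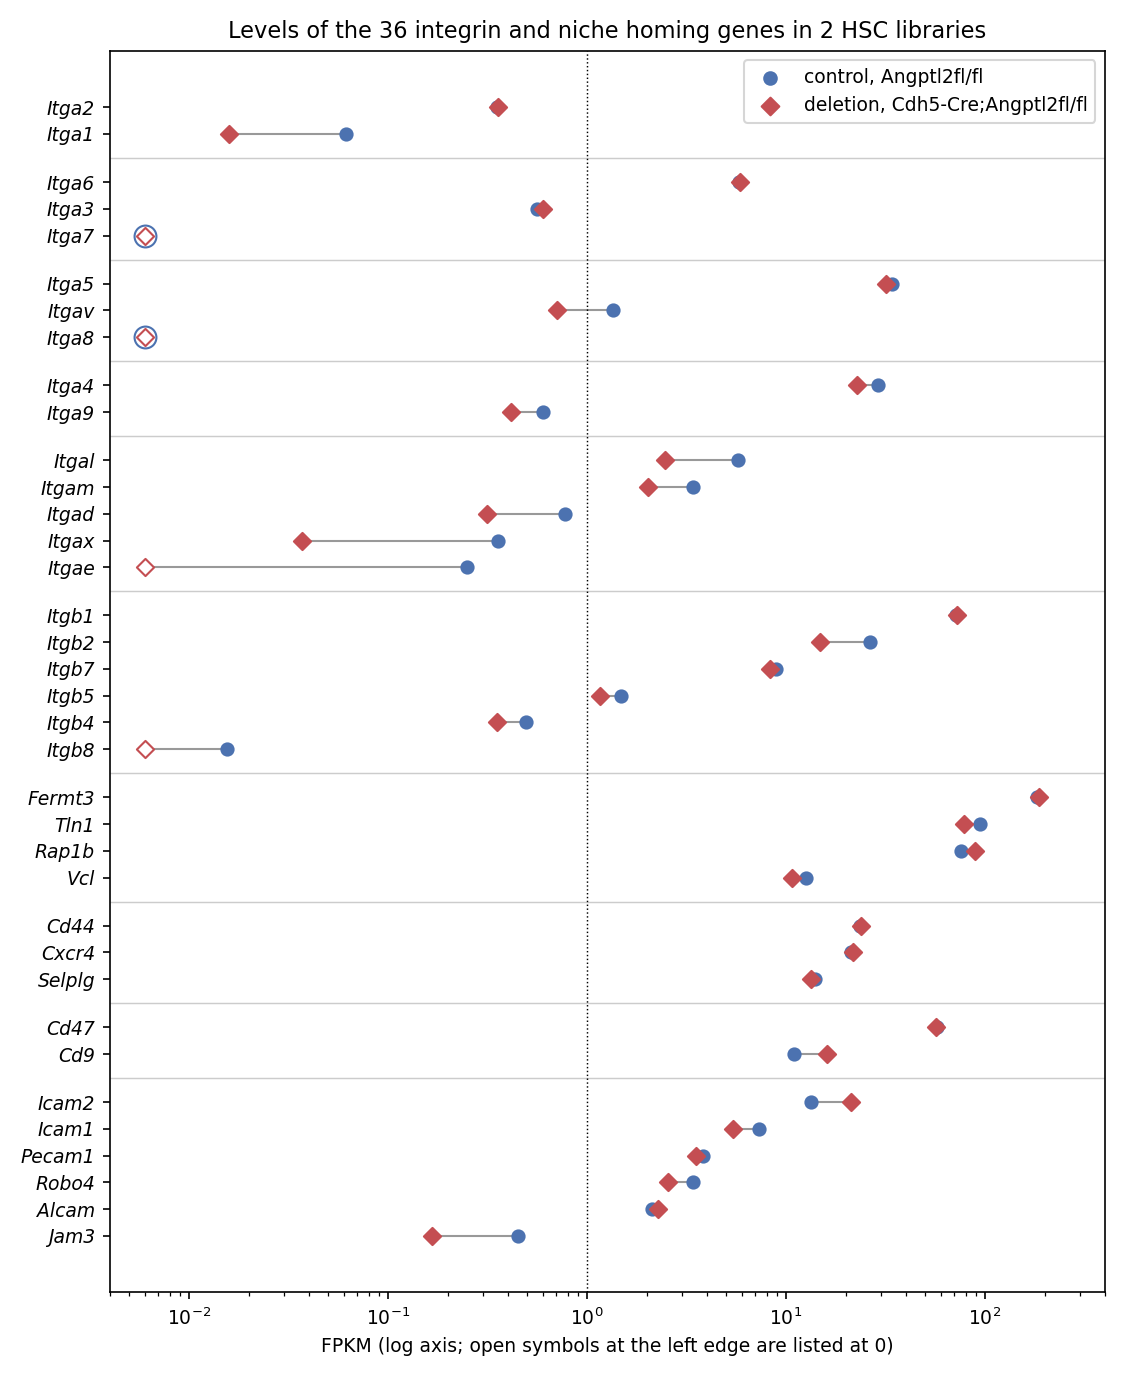
Level of each of the 36 genes in FPKM on a log axis, in the control library (blue circles) and the deletion library (red diamonds), grouped by role from collagen-binding alpha chains at the top to immunoglobulin superfamily genes at the bottom. The dotted line marks 1 FPKM and open symbols mark a listed value of 0; Itga7 and Itga8 were at 0 in both libraries. In the block from Itgal to Itgae every control symbol lies to the right of the deletion symbol; wide gaps elsewhere, at Itga1 and Jam3, rest on 25 control fragments or fewer.

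Among the alpha chains, fibronectin and VCAM1 receptors were the most abundant. Itga5, the alpha chain of the classical fibronectin receptor, stood at 33.9 FPKM in the control (2910 fragments) and 31.8 FPKM in the deletion library (2645 fragments). Itga4, which with Itgb1 forms the VCAM1 receptor VLA-4, stood at 28.9 and 22.8 FPKM, from 7020 and 5357 fragments. Itga4 was thus 1.27-fold lower in the deletion library, a larger step than that of Itga5, at 1.07-fold. On the plain ratio of FPKM the 95% counting interval of the log2 difference was -0.40 to -0.29 for Itga4 and -0.17 to -0.016 for Itga5. Such intervals are exact Clopper-Pearson intervals that cover counting error only. They say nothing of the variation between mice or preparations, and 8.04% of the exon bases of Itga4 lie opposite exons of Cerkl, and whether counting used strand is not stated.

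The laminin receptor chain Itga6, used to sort stem cells in several tissues, was at 5.83 FPKM in the control and 5.89 FPKM in the deletion library. Its 915 and 895 fragments gave an interval of -0.12 to 0.15. Itga3, the other laminin receptor chain detected, was at 0.564 and 0.603 FPKM from 56 and 58 fragments. Neither chain could be told apart between the libraries. Itga7, a laminin receptor chain of muscle, and Itga8, an RGD-binding chain of mesenchymal cells, were listed at 0 in both. A count of 0 allows up to 3 fragments, which is 0.022 FPKM for Itga7 and 0.0242 FPKM for Itga8 in the deletion library.

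Itgav, the alpha chain of vitronectin receptors, was at 1.35 FPKM in the control and 0.707 FPKM in the deletion library. The 252 and 128 fragments put it 1.91-fold lower, with an interval of -1.25 to -0.62 on the log2 scale. Itga9, a relative of Itga4, was at 0.599 and 0.417 FPKM (80 and 54 fragments). The collagen receptor chains were scarce, Itga2 at 0.355 and 0.358 FPKM from 44 and 43 fragments and Itga1 at 0.0619 and 0.016 FPKM from 20 and 5 fragments.

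The 5 leukocyte alpha chains had lower values in the deletion library without exception. Itgal, the alpha chain of LFA-1 and the ICAM receptor of lymphocytes and myeloid cells, was at 5.72 FPKM (653 fragments) in the control and 2.47 FPKM (273 fragments) in the deletion library. It was 2.32-fold lower, with an interval of -1.42 to -1.01 on the plain log2 scale, and on the scale with 1 FPKM added its ratio was -0.95. On that scale 0.85% of protein-coding genes had a lower ratio. Itgam, the alpha chain of Mac-1 (CD11b) on neutrophils and macrophages, was at 3.40 and 2.03 FPKM from 297 and 172 fragments. It was 1.67-fold lower, with an interval of -1.02 to -0.47, and 3.51% of protein-coding genes had a lower ratio. Of the exon bases of Itgam, 68.7% are shared with Gm49368, annotated on the same strand across Itgam, so its level depends on how shared fragments were assigned.

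The remaining 3 leukocyte chains were under 1 FPKM. Itgad, the CD11d chain of tissue macrophages, was at 0.778 and 0.316 FPKM (61 and 24 fragments). Itgax, the CD11c chain of dendritic cells and some macrophages, was at 0.359 and 0.0371 FPKM, from 30 and 3 fragments. Its 9.69-fold ratio has a wide counting interval, -5.63 to -1.59 on the log2 scale. Itgae, the CD103 chain of intraepithelial T cells and a dendritic cell subset, had 20 control fragments and none in the deletion library, which makes it at least 6.46-fold lower against a limit of 3 fragments. In a bulk sample, fewer cells of a type and less mRNA in each cell cannot be told apart.

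Genes of the cells in which these chains are abundant also differed. In the monocyte and macrophage list 10 of 13 genes were lower in the deletion library, among them Csf1r at 4.44 and 0.754 FPKM and Adgre1 at 1.62 and 0.458 FPKM. Ms4a7 was listed at 0 there. The summed level of that list was nonetheless 76.8 FPKM in the control and 85.9 in the deletion library, because Ly6c2 stood at 30.4 and 60.8 FPKM. All 9 dendritic cell genes had lower values, with a summed level of 74.6 and 46.2 FPKM. Some were near equality, such as Siglech from 20 and 19 fragments and H2-Eb1 at 5.59 and 5.32 FPKM. Xcr1 and Cd209a were at 0 in the deletion library, from only 4 and 8 control fragments, and the interval of Xcr1 included equality. Of 12 T and NK cell genes 8 had lower values, but only 2, Lck and Nkg7, averaged at least 1 FPKM, and both were higher. Cd3e, Cd3d, Cd3g and Cd8a had at most 0.174 FPKM in the control and were at 0 in the deletion library, while the summed level was 34.7 and 82.5 FPKM with Nkg7 alone at 29.2 and 78.0 FPKM. The 8 eosinophil, basophil and mast cell genes summed to 79.4 FPKM in the control and 14.8 in the deletion library, with 6 lower and 2 higher. Together with the neutrophil genes above, the part of these cells in the lower leukocyte integrin values was not tested.

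Of the leukocyte chains, 4 lie on chromosome 7 of GRCm38. Itgam (128062640 to 128118491), Itgax (128129547 to 128150657) and Itgad (128154376 to 128223816) follow one another on the plus strand with gaps of 11.1 and 3.72 kb, and Itgal (127296260 to 127335138) lies 728 kb away. Within 200 kb of the Itgam to Itgad block, the 10 other protein-coding genes averaging at least 1 FPKM had log2 ratios of -0.38 (Zfp646) to 0.85 (Vkorc1), with 6 above 0. Within 200 kb of Itgal there were 19 such genes, from -0.35 to 0.43, with 9 above 0. Itgal and Itgam, at -0.95 and -0.54, lay below the whole range of the genes around them.

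The promoters of both abundant alpha chains and of 2 leukocyte chains are shown. Each gene had a lower value in the deletion library, by 1.07-fold for Itga5, 1.27-fold for Itga4, 1.67-fold for Itgam and 9.69-fold for Itgax. The Itgax value there rests on 3 fragments. Itgal and Itgb2 are among the 11 members without a promoter entry. Each run is the 250 bases before the RefSeq start on GRCm38.p6, read along the gene's strand. Capitals mark GAGGAA, the core of sites for PU.1 and other ETS factors of myeloid genes, TGTGGT, the core of RUNX sites, and GGGCGG, the GC box, each searched on both strands. Itga4 lies at chr2:79255176-79255425 (plus strand), Itga5 at chr15:103366792-103367041 (minus), Itgam at chr7:128062390-128062639 (plus) and Itgax at chr7:128129300-128129549 (plus).
Itga4: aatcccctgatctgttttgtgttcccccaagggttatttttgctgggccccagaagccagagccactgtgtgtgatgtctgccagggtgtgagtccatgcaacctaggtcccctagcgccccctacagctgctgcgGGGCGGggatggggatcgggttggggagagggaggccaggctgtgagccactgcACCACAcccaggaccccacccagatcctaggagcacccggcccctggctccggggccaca
Itga5: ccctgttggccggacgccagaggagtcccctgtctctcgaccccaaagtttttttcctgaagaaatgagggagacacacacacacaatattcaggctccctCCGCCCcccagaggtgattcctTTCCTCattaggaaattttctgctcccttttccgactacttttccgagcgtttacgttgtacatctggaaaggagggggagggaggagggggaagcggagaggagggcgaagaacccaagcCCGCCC
Itgam: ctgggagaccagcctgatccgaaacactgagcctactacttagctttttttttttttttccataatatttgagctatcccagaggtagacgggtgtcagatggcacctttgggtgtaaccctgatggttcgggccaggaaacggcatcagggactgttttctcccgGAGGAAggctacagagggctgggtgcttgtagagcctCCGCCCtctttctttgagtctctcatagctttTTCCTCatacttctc
Itgax: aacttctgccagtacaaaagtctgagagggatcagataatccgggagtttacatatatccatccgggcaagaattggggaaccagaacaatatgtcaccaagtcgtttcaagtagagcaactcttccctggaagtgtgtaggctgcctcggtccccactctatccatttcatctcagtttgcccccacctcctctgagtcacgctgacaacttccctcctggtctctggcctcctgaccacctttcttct

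In the Itgam run GAGGAA lies 84 to 79 bases before the start, and its reverse complement TTCCTC 15 to 10 bases before it, with a GC box on the other strand at 47 to 42. The Itga5 run holds TTCCTC as well, 127 to 122 bases before the start, with GC boxes on the other strand at 149 to 144 and at 6 to 1. The Itga4 run holds a GC box at 114 to 109 and a RUNX core on the other strand at 60 to 55. None of these letters occurs in the Itgax run. Of 32851 promoters of this length in the table, 23.3% held GAGGAA, 14% TGTGGT and 32.7% GGGCGG on either strand. Of the 25 members with an entry, 9, 3 and 13 did. GAGGAA thus occurs before Itgam, which was 1.67-fold lower, and before Itga5, which was 1.07-fold lower.

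Beta chains also differed from one another in their ratios. Itgb1 (chromosome 8, 128685654 to 128733200, plus strand), the common partner of the niche receptors, was the most abundant integrin gene, at 71.7 FPKM in the control and 72.4 FPKM in the deletion library. The 5082 and 4976 fragments gave an interval of -0.042 to 0.071, so its log2 difference was small even by counting error. Itgb2 (chromosome 10, 77530252 to 77565708, plus strand), the partner of every leukocyte chain but Itgae, was at 26.3 and 14.9 FPKM. It was 1.77-fold lower from 1397 and 765 fragments, with an interval of -0.95 to -0.69, and 1.41% of protein-coding genes had a lower ratio. Itgb7, which pairs with Itga4 in gut homing and with Itgae, was at 8.89 and 8.27 FPKM with an interval of -0.31 to 0.098.

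Other beta chains were scarce. Itgb5, a partner of Itgav, was at 1.49 and 1.17 FPKM from 92 and 70 fragments, and its interval of -0.82 to 0.12 included equality. Itgb4, the hemidesmosome chain of epithelia, was at 0.492 and 0.356 FPKM. Itgb8, a chain that activates TGF-beta, had 3 fragments in the control and none in the deletion library, both at or under the limit that a count of 0 allows.

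Read as pools with Itga2b included, the alpha chains differed in makeup more than in amount. All 18 alpha chain genes, with Itga2b included, summed to 99.1 FPKM in the control and 99.0 FPKM in the deletion library. The near equality of these sums rests on Itga2b, without which the sum was lower in the deletion library. Itga4 and Itga5 together made up 63.4% of the full sum in the control and 55.1% in the deletion library. Their own level was 62.8 and 54.6 FPKM, and the lower share also depends on the higher Itga2b in the sum. The 5 leukocyte chains, with Itgam and its shared exon bases among them, made up 10.6% and 4.9%, and the laminin receptor chains 6.46% and 6.55%. Itga2b, the platelet chain, which is not a member, made up 16.4% and 31%. It stood at 16.3 and 30.7 FPKM, and its partner Itgb3 at 3.52 and 5.28 FPKM. Both belong to the platelet list given above, whose other 9 genes summed to 45.6 FPKM in the control and 125.4 in the deletion library, with 6 higher and 3 lower. Unlike the sums, the shares do not depend on how one library is scaled against the other.

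**Figure D2:**
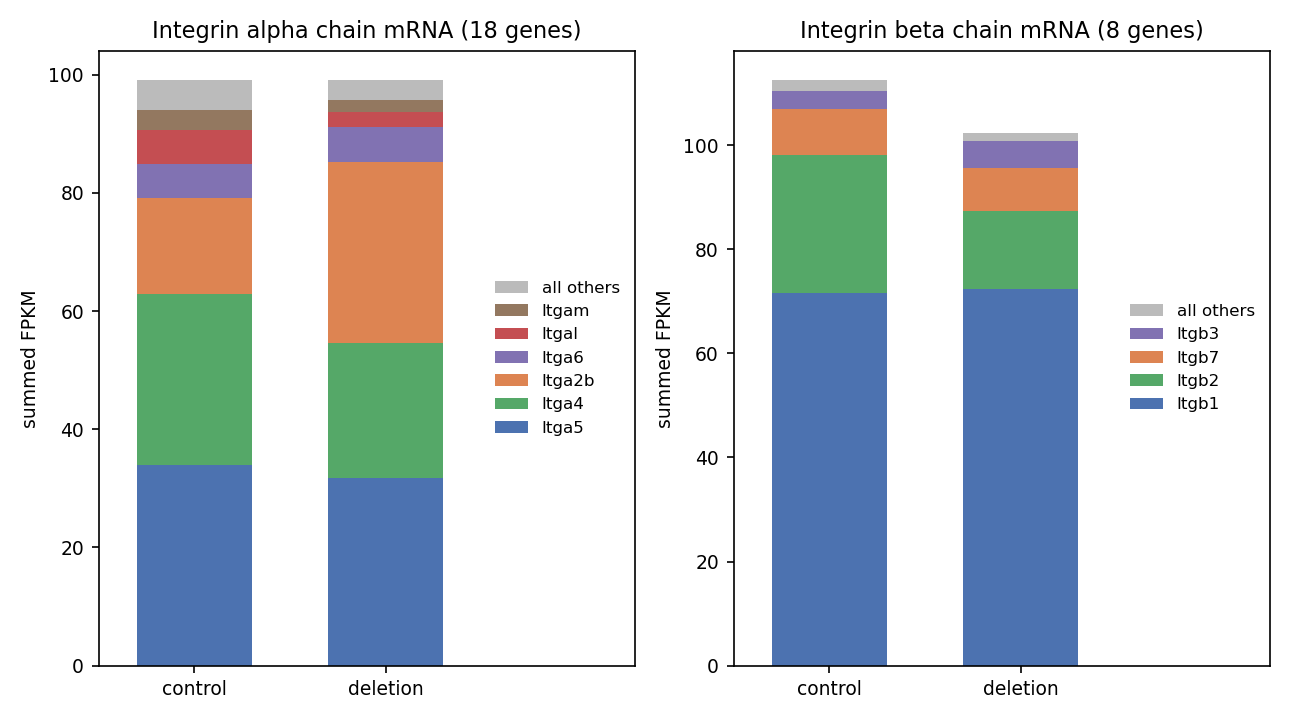
Summed FPKM of the 18 integrin alpha chain genes (left) and the 8 beta chain genes (right) in the control and deletion libraries, stacked by gene, with 1 library per bar and no error bar. The alpha bars have nearly the same height, with a wider Itga2b segment and narrower Itga4, Itgal, Itga5 and Itgam segments in the deletion library; the beta bar of the deletion library is shorter by its Itgb2 segment.

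The 8 beta chains summed to 112.5 FPKM in the control and 102.4 in the deletion library, of which Itgb1 made up 63.7% and 70.7% and Itgb2 23.4% and 14.5%. Set against its 12 possible alpha partners, Itgb1 stood at 0.991 of their summed FPKM in the control and 1.14 in the deletion library. Itgb2 stood at 2.57 and 3.07 times the sum of its 4 partners. That sum includes Itgam, whose level depends on how fragments shared with Gm49368 were assigned. Itgal, Itgam and Itgb2 were thus lower together, and mRNA of Itgb2 exceeded that of its alpha chains in both libraries.

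Inside the cell, the integrin activators Fermt3, Tln1 and Rap1b were among the most abundant genes of the set. Fermt3, kindlin-3, the kindlin of blood cells, was at 182.1 FPKM in the control and 187.5 FPKM in the deletion library, above 98.3% and 98.1% of protein-coding genes. Its fragments could not be recovered as whole numbers in both libraries, so it has no interval. Tln1, talin, was at 94.3 and 78.4 FPKM from 16067 and 12936 fragments, 1.20-fold lower with an interval of -0.30 to -0.23. Rap1b, the Rap1 isoform of platelets and leukocytes, was at 75.6 and 89.0 FPKM, 1.18-fold higher with an interval of 0.17 to 0.30. Vcl, vinculin, which ties talin to actin, was at 12.7 and 10.7 FPKM. The 4 genes therefore had ratios on either side of equality. For Vcl, 25.5% of exon bases lie opposite exons of Ap3m1.

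The homing receptors were at similar levels in both libraries. Cxcr4, the receptor of the niche chemokine CXCL12, was at 21.2 FPKM in the control and 21.8 FPKM in the deletion library (666 and 665 fragments), with an interval of -0.11 to 0.20. Cd44, the hyaluronan receptor, was at 23.5 and 23.7 FPKM with an interval of -0.062 to 0.092. Selplg, the P-selectin ligand PSGL-1, was at 13.9 and 13.4 FPKM with an interval of -0.18 to 0.074. All 3 intervals included equality and lay within 0.20 on the log2 scale. Cd47, the signal that keeps macrophages from engulfing a cell, was at 57.5 and 56.8 FPKM with an interval of -0.070 to 0.033.

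**Figure D3:**
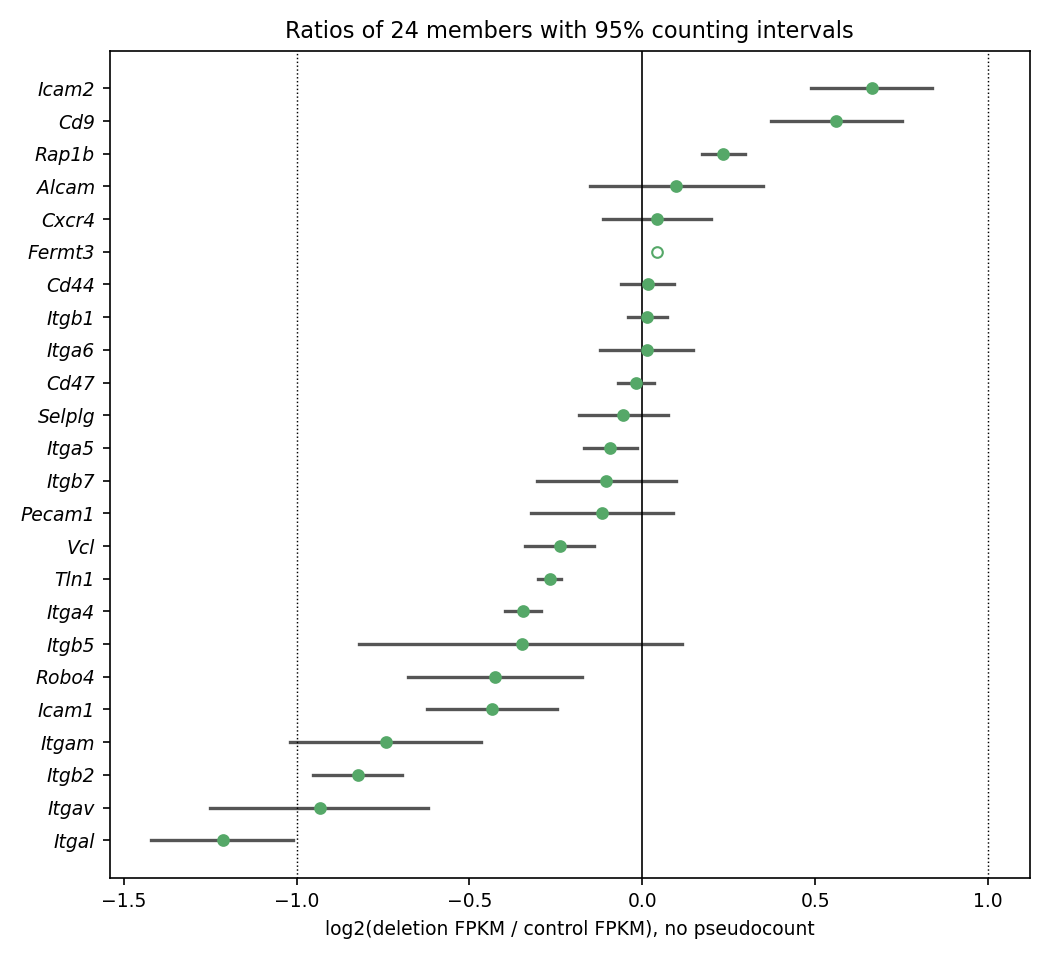
Log2 ratio of deletion to control FPKM without a pseudocount for the 24 genes averaging at least 1 FPKM, with 95% counting intervals as bars; the open point (Fermt3) has none. The dotted lines mark 2-fold. The whole interval of Itgal lies below the lower line, and those of Icam2, Cd9 and Rap1b lie above 0.

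Cd9, a tetraspanin of platelets and stem cells, was at 10.9 FPKM in the control and 16.1 FPKM in the deletion library. The 389 and 556 fragments put it 1.47-fold higher with an interval of 0.37 to 0.75. Icam2, an LFA-1 ligand on endothelium, platelets and leukocytes, was at 13.4 and 21.2 FPKM, from 443 and 680 fragments. It was 1.58-fold higher with an interval of 0.49 to 0.84, and 97.9% of protein-coding genes had a lower ratio. The 9 endothelial markers summed to 21.9 FPKM in the control and 23 in the deletion library. Of these 6 were lower, among them Cdh5, Tek, Emcn and Esam, and Kdr, Plvap and Vwf were higher, the last of which is also in the platelet list. Both Cd9 and Icam2 are expressed in megakaryocytes and platelets, of whose 11 markers 8 were higher in the deletion library and Gp1bb, with 1 fragment in the control, was at 0 there. The part of such cells in the higher values was not tested.

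Icam1, the cytokine-induced LFA-1 ligand, had a lower value, at 7.32 FPKM in the control and 5.42 FPKM in the deletion library (interval -0.62 to -0.25). Robo4, a receptor of endothelium that also marks HSCs and takes part in their anchoring, was at 3.43 and 2.55 FPKM (interval -0.68 to -0.17). Pecam1, CD31, was at 3.84 and 3.55 FPKM and Alcam, CD166, at 2.13 and 2.28 FPKM. Their intervals, -0.32 to 0.089 and -0.15 to 0.35, included equality. Jam3, a junctional adhesion molecule, was at 0.449 and 0.167 FPKM from 25 and 9 fragments, and 36.2% of its exon bases lie opposite another gene. Ligands of LFA-1 were thus found on either side, Icam1 lower and Icam2 higher.

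**Figure D4:**
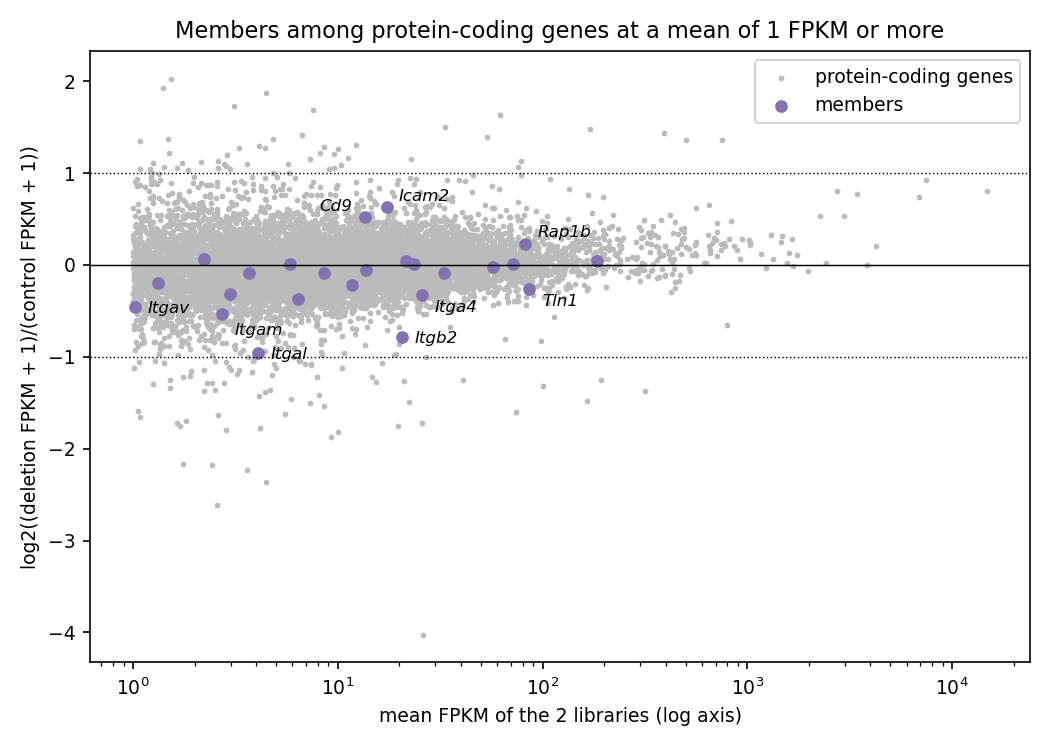
Log2((deletion FPKM + 1)/(control FPKM + 1)) against mean FPKM (log axis) for protein-coding genes averaging at least 1 FPKM (grey) and the 24 members at that level (purple). Dotted lines mark 2-fold. All 24 members lie between the dotted lines, with Itgal at -0.95 lowest and Icam2 at 0.63 highest.

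Counting error alone separated many genes. Of the 23 members with recovered fragments averaging at least 1 FPKM, the interval lay above equality for 3 (13%), below it for 10 (43.5%) and across it for 10. Among 9669 protein-coding genes with recovered fragments it lay above equality for 27.4% and below it for 31.5%. An interval that leaves out equality is therefore common in this pair of libraries.

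The wider adhesion machinery, in lists that hold no member, had 8 of 117 genes averaging at least 1 FPKM that were at least 2-fold lower in the deletion library (6.84%) and none that was 2-fold higher, against 0.752% and 0.488% of protein-coding genes. The lists were chosen with earlier results of these data known, so this contrast is not independent of those results. Highest and lowest below refer to genes averaging at least 1 FPKM, on the scale with 1 FPKM added. The 51 further genes of integrin activation and adhesion complexes had 39 averaging at least 1 FPKM, with none at least 2-fold higher, 1 lower and a median log2 ratio of -0.12. The 1 was Fgr, a Src family kinase downstream of leukocyte integrins, at 5.53 FPKM in the control and 2.17 FPKM in the deletion library. Rap1gap2, which turns Rap1 off, was next at 1.93 and 0.638 FPKM. Rsu1, a partner of the integrin-linked kinase complex, was at 4.99 and 7.05 FPKM, and Rasgrp2, which turns Rap1 on, at 5.75 and 7.74 FPKM, the highest ratios of the list. Itgb2l, a beta 2-like chain of neutrophils, was at 5.66 and 1.98 FPKM.

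Of 28 chemoattractant and egress receptors 11 were averaging at least 1 FPKM, with 3 at least 2-fold lower, beside the 0.752% of protein-coding genes, and none higher. These were Cxcr2, the neutrophil chemokine receptor and a gene of the neutrophil list, at 3.66 and 0.799 FPKM, Fpr2, a formyl peptide receptor, at 3.69 and 0.916 FPKM, and C5ar1, the complement C5a receptor, at 4.21 and 1.5 FPKM. Ccr7, a lymph node homing receptor, was highest at 0.64 and 1.47 FPKM. Of 16 measured selectins, sialomucins and enzymes of selectin ligand synthesis, none passed 2-fold in either direction, and the median was -0.02. Tpst1, a tyrosine sulfotransferase, was lowest at 7.80 and 5.30 FPKM and Fut4, a fucosyltransferase, highest at 0.664 and 1.75 FPKM. Cd34 was at 7.87 and 5.43 FPKM. Among 18 measured other adhesion receptors and tetraspanins 1 was at least 2-fold lower, Lgals3 (galectin-3) at 11.3 and 3.35 FPKM, and none was 2-fold higher, with Cd48 at 8.23 and 16.3 FPKM and Cd63 at 13.8 and 23.7 FPKM at the upper end.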

How the data were processed

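RNA of sorted HSCs was extracted with TRIzol and columns and sequenced as paired reads of 150 bases, per the labels' protocols. FPKM values for 54531 Ensembl genes were calculated and deposited by the authors, 1 column per library. The submitters' processing notes list Bowtie 0.12.2 and build mm8 without saying what for, and neither the counter nor the gene models are stated. FPKM depends on library totals and gene models, so abundant genes shift the rest and related genes can exchange fragments.

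Symbols came from a list of gene names, and exon lengths and positions from GENCODE M21 (GRCm38), a build other than that in the notes, with lengths that matched the deposited values. FPKM times exon length lay within 0.02 of whole multiples of 1 step for 96.5% of 21882 genes above 0 (control) and 96.1% of 18210 (deletion), which gave depth and fragments. Ratios are log2((FPKM + 1)/(FPKM + 1)), counted at 2-fold among genes averaging at least 1 FPKM. Intervals are exact Clopper-Pearson at 95% on fragments (scipy 1.17.1). The computation was tested on simulated data. Genes named were all members and the highest and lowest of each related list, not all of them reported; marker, neighbour and promoter genes were added after their values were seen. The members and lists were chosen with earlier results of these data known. Alternatives were other pseudocounts, minima, scalings and thresholds. A related list of genes is not reported here.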

Additional observations from a re-analysis of the deposited data

How the results depend on the processing

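With 1 library per genotype no replicate could be left out. No paired analysis was possible because each group holds 1 sample. Counting depth limits the scarce chains: at 20 fragments or fewer only large ratios show. The count of members at least 2-fold lower, 0 of 24, became 1 (Itgal) with a pseudocount of 0.1 FPKM, on rescaling to a common total, and without mitochondrially encoded genes in the scaling. With a 1.5-fold threshold it was 2, and the count of higher members went from 0 to 1. The count stayed 0 in both directions under the other settings tried. The median of the members, -0.09, was -0.24 with a common total, which moved the median of all genes by -0.14. The signs of Itga6, Itgb1, Fermt3, Cxcr4, Cd44 and Alcam turned below 0 there, and those of the first 5 also without mitochondrial genes. Among 117 measured genes of the related lists, 0 were higher and 8 lower. With a pseudocount of 0.1 FPKM, 2 were higher and 10 lower, and at 1.5-fold 5 were higher and 11 lower. A common total gave 10 lower, a pseudocount of 5 FPKM gave 1 and a 4-fold threshold gave 1. At a minimum of 5 FPKM, 2 of 78 were lower.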

Other observations

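Integrin ligands were mostly scarce in these cells. Of 30 such genes, 6 had a mean of at least 1 FPKM, with 2 at least 2-fold lower in the deletion library, beside 0.752% of protein-coding genes, and none higher. Fn1 (fibronectin), the ligand of Itga5 pairs, was 10.7-fold lower, at 6.57 FPKM in the control and 0.615 in the deletion library (1334 and 121 fragments). Thbs1 (thrombospondin 1) was at 14.8 and 6.26 FPKM. Vcam1, the ligand of VLA-4, stood at 3.69 and 5.78 FPKM. The receptors Itga5 and Itgb1 differed by at most 1.07-fold beside this.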
